A study of Mus musculus with 14 samples.

Results

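The brain nuclei that the deposited clustering labels Glut_20 are described here: 499 of the 31324 nuclei of 2 single-nucleus RNA libraries. Of the Glut_20 nuclei, 329 came from the control library and 170 from the library of mice that lost *Tgfbr1* in vascular endothelial cells. The knockout mice carried a tamoxifen-activated Cre driven in endothelial cells (*Cdh5CreER* in the methods, *VEcadCreER* in the sample labels) with 1 floxed and 1 null *Tgfbr1* allele, and are called CKO below; the control mice are wild type by the sample label and phenotypically so by the paper, which names Cre carriers with a single floxed allele as its usual retina controls. 4-hydroxytamoxifen was given between postnatal days 3 and 5, and brains were taken at postnatal day 14 by the methods and from young adults by the series description. Each library pooled 2 brains, from which vascular fragments were enriched on Ficoll and retained on a filter, so neurons in these data are those that stayed with the vessel fraction. There is 1 library per genotype. Every difference between CKO and control is therefore given with counting error only, and whether it exceeds the variation between animals was not tested.

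The label makes a claim that its genes can be held against. Glutamatergic neurons load vesicles with the transporters *Slc17a7* or *Slc17a6*, GABAergic neurons make and load GABA with *Gad1*, *Gad2* and *Slc32a1*, and neurons of different brain regions keep different transcription factors and peptides. RNA inside a nucleus is mostly unspliced and comes largely from long genes and nuclear noncoding RNAs, while messages for ribosomal proteins and transcripts of the mitochondrial genome lie outside it.

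Barcodes shared by both libraries numbered 2 among all brain nuclei and 0 involved Glut_20. The Glut_20 nuclei held 526935 UMIs in control and 177963 in CKO. Their median depth was 963 UMIs in control and 666 in CKO, against 2539.5 and 1882 for the other nuclei labelled Glut or GABA, called other neurons from here on. They had a median of 659 and 509.5 genes. *Tgfbr1*, the deleted receptor gene, had 2 UMIs in control and 3 in CKO, too few for a ratio, and a count per gene does not separate transcripts of the deleted allele. *Tgfbr2*, which encodes its partner receptor, had 7 and 4 UMIs.

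How large the cluster was in each library was asked first. Glut_20 made up 1.98% of control nuclei (Clopper-Pearson 95% interval 1.77 to 2.20) and 1.16% of CKO nuclei (0.992 to 1.34). The CKO share was 0.586 of the control share (counting interval 0.484 to 0.708). The difference depends on depth: of nuclei with at least 1000 UMIs, Glut_20 made up 1.51% in control and 0.560% in CKO. Shares of a library move together: endothelial nuclei made up 14.9% of control and 20.1% of CKO nuclei. Whether mice of each genotype differ in this share was not tested.

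Whether the nuclei are neuronal was asked next, from 14 genes used in most neurons. All 14 were found in at least 10% of the Glut_20 nuclei, as were 2327 of the 2836 genes with at least 50 UMIs, so detection alone sets them little apart. At least 2-fold above other neurons were 5 of the 14 (35.7%), against 70.2% of all genes with at least 50 UMIs, and summed they stood at 0.397 in control and 0.388 in CKO of the level in the other nuclei labelled Glut or GABA, a sum in which *Meg3* weighs most. *Snap25*, a protein of the vesicle fusion machinery, stood at 1452 CPM (95% interval 1351 to 1558) in control and 1248 CPM (1089 to 1423) in CKO, 1.47-fold and 1.46-fold the level of other neurons. It was found in 70.7% of Glut_20 nuclei; thinned to 1000 UMIs it was found in 74.3% of them, 57.1% of other neurons, and 4.45% and 0.336% of control and CKO oligodendrocytes. *Stmn2*, a microtubule regulator of growing axons, stood at 1368 CPM in control and 1405 CPM in CKO, which is 6.75-fold and 8.22-fold the level in other neurons. *Tubb3*, the neuronal beta-tubulin, had 1118 CPM in control and 1264 CPM in CKO and was 23.8-fold and 23.4-fold the level in other neurons. With nuclei thinned to 1000 UMIs, *Tubb3* was found in 60% of Glut_20 nuclei and 4.73% of other neurons. Oligodendrocyte nuclei, which should lack it, had it in 0.202% of 494 nuclei in control and 0 of 298 in CKO at that depth. At most 0.5 of the level of other neurons in both libraries were 4 of the 14. *Rbfox1*, a splicing regulator, stood at 1089 CPM in control and 1539.6 CPM in CKO, or 0.133 and 0.190 of the level of other neurons. *Meg3*, a nuclear noncoding RNA abundant in neurons, stood at 2103 CPM in control and 2793 CPM in CKO, or 0.143 and 0.162 of that level. *Rbfox1* had 767 UMIs in sub-cluster 2, described below, and 81 in the rest of Glut_20. Without that sub-cluster its log2 fold over other neurons was -5.30 in control and -5.695 in CKO, against -2.91 and -2.39 with it. *Meg3* stood at 4097.2 CPM in sub-cluster 2 and 1001.3 CPM in the rest. Its log2 fold without that sub-cluster was -3.67 in control and -5.14 in CKO, against -2.81 and -2.63. *Rbfox3*, which encodes the nuclear antigen NeuN, was found in 24.2% of Glut_20 nuclei, at 0.506 and 0.673 of other neurons. Without sub-cluster 2 its log2 fold was -1.65 in control and -1.146 in CKO, against -0.984 and -0.571. The 14 genes have a median span, from first to last annotated base, of 71.7 kb, against 26.3 kb for all genes with at least 50 UMIs. Of the 10 genes listed for immature neurons, 8 were at least 2-fold above other neurons in both libraries. With transmitter genes included, 18 of 28 neuron class genes with at least 50 UMIs (64.3%) were so. Transcripts that neurons make are thus found in Glut_20, in proportions unlike those of the other neuron labels. The 14 genes used in most neurons are raised less often than genes at large, and those of immature neurons are not.

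**Figure D1:**
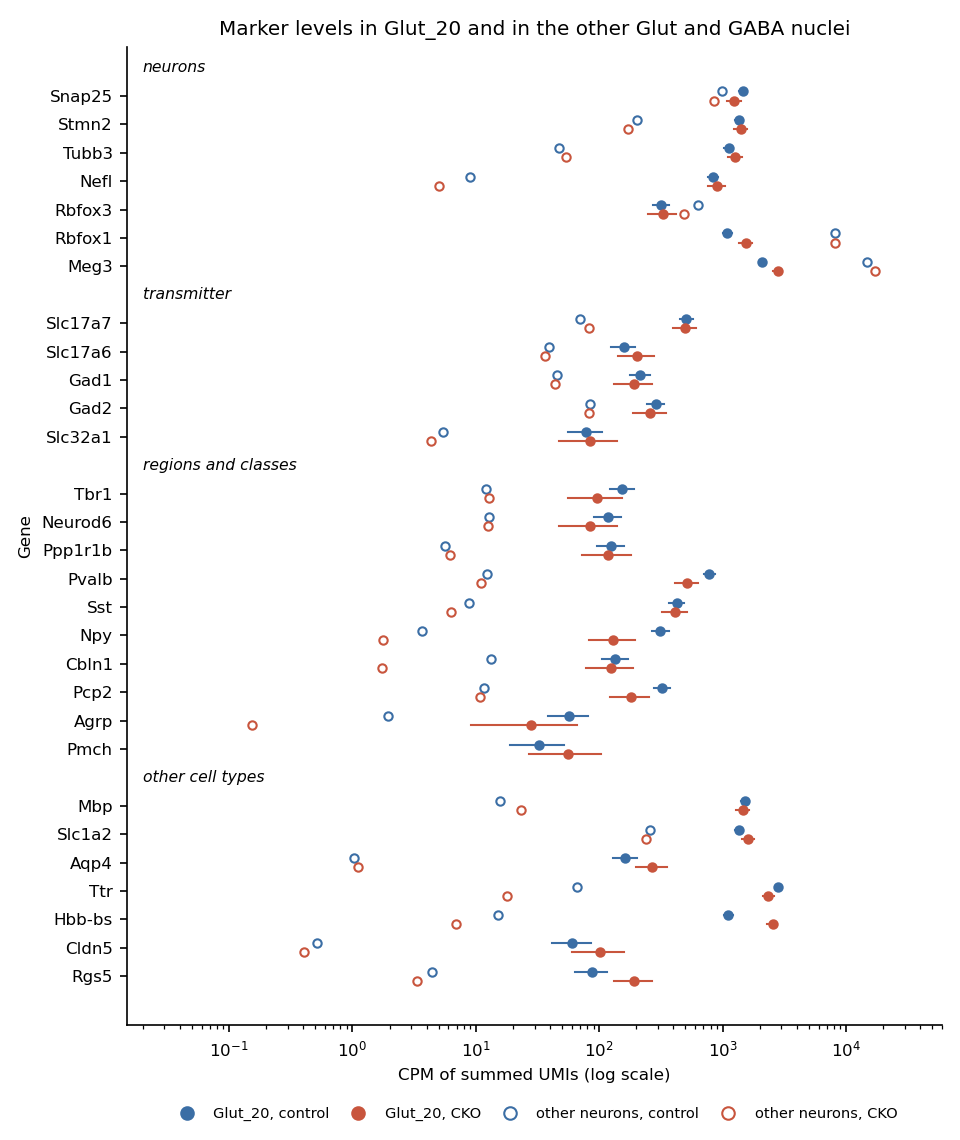
CPM of summed UMIs on a log scale for marker genes in Glut_20 (filled points, bars are 95% Poisson intervals) and in the other nuclei labelled Glut or GABA (open points), control in blue and CKO in red. *Snap25* lies near the level of other neurons, *Rbfox1* and *Meg3* lie below it, and the genes drawn from glutamatergic, GABAergic, regional and glial lists lie above it.

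The genes that set Glut_20 apart were listed by their fold over all other brain nuclei. Of 2836 genes with at least 50 UMIs in the cluster, 1425 (50.2%) were at least 4-fold above all other nuclei in both libraries. A share that large means that a 4-fold rise by itself singles out few genes here. The label was drawn by clustering the same nuclei, so these folds describe it and test nothing. *Ttc9b*, which encodes a tetratricopeptide repeat protein (GRCm39 chromosome 7, 27353132 to 27362061), led with 203 CPM in control and 197 CPM in CKO. It was 263-fold and 276-fold the level in all other nuclei in control and CKO. *Rab3a*, a small GTPase of synaptic vesicles (chromosome 8, 71207238 to 71211333), had 655 CPM in control and 612 CPM in CKO, or 133-fold and 183-fold the level in all other nuclei. *Nefl*, the light neurofilament chain, was found in 50.9% of nuclei and had 837 CPM in control and 899 CPM in CKO, or 108-fold and 198-fold the level in all other nuclei. The 20 leading genes also held the neurofilament chains *Nefm* and *Nefh*, the tubulins *Tuba4a* and *Tubb2a*, the Cdk5 activator *Cdk5r2*, the kinase inhibitor *Camk2n2*, the G protein subunit *Gng13*, the neuronal proteins *Cend1*, *Bex1* and *Bex2*, and the imprinted gene *Ndn*. They held the peptides *Sst* and *Npy* of GABAergic interneurons, and *Olig1*, a transcription factor of the oligodendrocyte lineage, at 189.8 CPM in control and 214 CPM in CKO and 78.6-fold and 90.3-fold the level in all other nuclei. *Tubb2a* was the most widely found of the 20, in 82.0% of nuclei. The remaining leading genes were *Pdxp*, *Fbll1* and *Atp6v0e2*, which encode a phosphatase, a nucleolar methyltransferase and a proton pump subunit.

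The most abundant transcript was *Bc1*, a small noncoding RNA carried into dendrites, at 14990 CPM in control and 8991 CPM in CKO. *Spidr*, *Gm36264* and *Tbc1d22b* came next, and these 4 had nearly the same fold over other neurons in control: 21.5, 21.2, 21.3 and 21.4. Whether they share reads was not tested. *Tmsb4x*, which encodes an actin-binding peptide, had 5448 CPM in control and 5074 CPM in CKO.

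The word Glut in the label was then held against the transmitter genes. Both kinds were above other neurons. *Slc17a7*, the vesicular glutamate transporter of cortex and cerebellar granule cells, stood at 507 CPM (95% interval 448 to 571) in control and 494 CPM (397 to 609) in CKO, 7.25-fold and 5.99-fold the level in other neurons. *Slc17a6*, the transporter of thalamus and brainstem, stood at 158 CPM in control and 202 CPM in CKO, 4.05-fold and 5.56-fold the level in other neurons. *Slc17a8*, the least used of the 3, had 13 and 3 UMIs. The GABA genes were raised alike. *Gad1*, which makes GABA, stood at 214 CPM in control and 191 CPM in CKO, 4.67-fold and 4.36-fold the level in other neurons. *Gad2*, the other GABA-making enzyme, stood at 287 CPM (95% interval 243 to 336) in control and 258 CPM (189 to 345) in CKO, 3.38-fold and 3.15-fold the level in other neurons. *Slc32a1*, which loads GABA and glycine into vesicles, stood at 77.8 CPM in control and 84.3 CPM in CKO, 14.3-fold and 19.5-fold the level in other neurons. Over all genes with at least 50 UMIs the median fold over other neurons was 8.01 in control and 9.01 in CKO. Apart from *Slc32a1*, the genes of both classes thus lie above other neurons by less than the typical gene, and their folds do not single them out. Cholinergic and monoaminergic genes were sparse: *Slc5a7*, the choline transporter, had 8 and 0 UMIs and *Slc6a3*, the dopamine transporter, 4 and 2.

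Whether the kinds met in the same nuclei was then counted. Any of the 3 glutamate transporters was found in 53.5% of Glut_20 nuclei, and *Gad1*, *Gad2* or *Slc32a1* in 47.1%. Both kinds were found in the same nucleus in 33.1% of control and 21.2% of CKO nuclei. Other neurons, deeper at the medians given above, had both kinds in 2.71% in control and 1.23% in CKO. Independent detection would give 5.82% and 3.76% in these pooled labels. The highest share in another neuron label was 9.56% in control, in Glut_21, and 3.43% in CKO, in Glut_14. In control, GABA genes were found in more nuclei than glutamate transporters in Glut_1, Glut_14 and Glut_21, at 66.2% against 14.7% in Glut_21. In the remaining Glut labels other than Glut_20 the order was the reverse. Independent detection at the rates of each library would give 29.8% and 17.4% in Glut_20, inside the 95% intervals of 28.1 to 38.5 and 15.3 to 28.1. In Glut_20 the kinds thus met about as often as separate draws would give. Thinned to 1000 UMIs, both kinds were found in 21.4% of 210 Glut_20 nuclei (95% interval 16.1 to 27.6) and 0.193% of 11383 other neurons. That depth left out 169 control and 120 CKO nuclei of Glut_20, and 2367 and 2346 other neurons. Genes of both classes are thus present under the label and are not kept to separate nuclei.

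From which region the nuclei came was asked with 29 lists of regional markers, holding 212 distinct genes. Of all genes with at least 50 UMIs, 1990 (70.2%) were at least 2-fold above other neurons in both libraries. Of the regional genes with at least 50 UMIs the count was 27 of 56, or 48.2%, which is below that share. In 17 of the lists at least 3 members of any count were raised, and in 7 at least 3 members were raised and also found in at least 10% of nuclei. The same 7 lists remain when members need 50 UMIs. The 7 were those of pallium, olfactory mitral and tufted cells, striatum, forebrain interneurons, cerebellar granule cells, Purkinje cells and cerebellar nuclei, and some genes, such as *Slc17a7* and *Pvalb*, are in several of them. Because these places lie far apart in the brain, no single region can be read from the lists.

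Pallial genes were present. *Tbr1*, a transcription factor of cortical glutamatergic neurons, stood at 154 CPM in control and 95.5 CPM in CKO, 12.6-fold and 7.44-fold the level in other neurons. *Neurod6*, another pallial factor, had 118 CPM in control and 84.3 CPM in CKO and was 9.28-fold and 6.75-fold the level in other neurons. *Bcl11a*, a zinc finger factor of cortical neurons, was lower than in other neurons, at 0.596 and 0.325 of their level. Striatal genes were present too. *Ppp1r1b*, the dopamine-regulated phosphatase inhibitor of medium spiny neurons, stood at 125 CPM in control and 118 CPM in CKO, 22.2-fold and 19.2-fold the level in other neurons. *Penk*, an opioid peptide precursor of striatal neurons, had 131 CPM in control and 112 CPM in CKO. *Pde10a*, a striatal phosphodiesterase with a long gene, was at 0.113 and 0.0821 of other neurons.

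*Pvalb* and *Sst*, genes of GABAergic interneurons, were among the most widely found regional genes. *Mef2c*, *Gap43* and *Camk2a*, which neurons of many regions use, were found in more nuclei. *Pvalb*, the calcium buffer of fast-spiking and Purkinje neurons, was found in 49.9% of nuclei and had 782 CPM (95% interval 708 to 861) in control and 511 CPM (412 to 628) in CKO, 63.2-fold and 46.6-fold the level in other neurons. *Sst*, the somatostatin peptide gene, was found in 38.1% and had 423 CPM in control and 410.2 CPM in CKO, 48.0-fold and 65.7-fold the level in other neurons. *Lhx6*, a transcription factor of the same interneurons, had no UMI in either library. Thinned to 1000 UMIs, *Pvalb* was found in 44.8% of Glut_20 nuclei against 1.10% of other neurons, in 0 of 494 control oligodendrocytes and in 0.336% of CKO oligodendrocytes.

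Cerebellar genes stood beside the forebrain ones. *Pcp2*, which Purkinje cells express, was found in 25.3% of nuclei (26.2% at 1000 UMIs, against 0.633% of other neurons) and had 325 CPM in control and 179.8 CPM in CKO, 27.7-fold and 16.6-fold the level in other neurons. *Cbln1*, a synapse organizer secreted by granule cells, had 135 CPM in control and 124 CPM in CKO, 10.2-fold and 71.6-fold the level in other neurons. The gap between these folds lies in the comparator: at 1000 UMIs *Cbln1* was found in 1.37% of control and 0.0684% of CKO other neurons. *Neurod1*, a factor of granule cells and immature neurons, had 353 CPM in control and 292 CPM in CKO and was found in 34.7%. *Zic1*, a factor of granule cells and the septum, was found in 27.3% of nuclei at 264 CPM in control and 253 CPM in CKO. *Gabra6*, the receptor subunit of mature granule cells, had 18 UMIs in control and 0 in CKO. Hypothalamic peptide genes appeared in few nuclei: *Pmch* in 4.81%, *Agrp* in 6.61% and *Oxt* in 1.80%. No UMI was found for 34 regional genes, among them the granule progenitor factor *Atoh1* and the brainstem factor *Phox2a*. At this depth a gene without a UMI is not shown to be absent.

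Whether markers of separate regions met within nuclei was counted with 4 groups, taken after the values above had been seen: *Neurod6* and *Tbr1* for pallium, *Ppp1r1b* for striatum, *Pcp2* for Purkinje cells, and *Cbln1* and *Cbln3* for granule cells. The groups were taken because their genes were raised in Glut_20, so no comparison with other neurons is drawn from them. UMIs of at least 2 groups were found in 28.0% of control (95% interval 23.2 to 33.1) and 10% of CKO nuclei (5.93 to 15.5). Independent detection of each group at its own rate would give 26.3% and 9.23%. Both values lie inside the intervals, so the groups met about as often as separate draws would give. The groups of *Pcp2* and of *Cbln1* both belong to the cerebellum, so some of these nuclei pair genes of different cells of that region.

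Which genes were raised went with gene span, the distance from the first to the last annotated base. Spans come from GENCODE vM39 on GRCm39, the build that the methods name (the sample labels list mm10), matched by symbol. Genes of at most 10 kb were at least 2-fold above other neurons in both libraries in 663 of 674 cases, with a median fold of 339 in control. Genes of at least 100 kb were so in 59 of 556, with a median fold of 0.349. The genes 4-fold above all other nuclei had a median span of 11.7 kb, against 65.5 kb for the rest. The regional genes followed the same division. The 26 that were raised and found in at least 10% of nuclei had a median span of 9.30 kb, and the 17 found as widely but not raised had 163 kb. *Sst* spans 4.41 kb and *Ppp1r1b* 9.46 kb, whereas *Bcl11a* spans 96.2 kb and *Pde10a* 461 kb. A regional marker in Glut_20 therefore cannot be told apart from a short gene by its fold over other neurons alone.

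**Figure D2:**
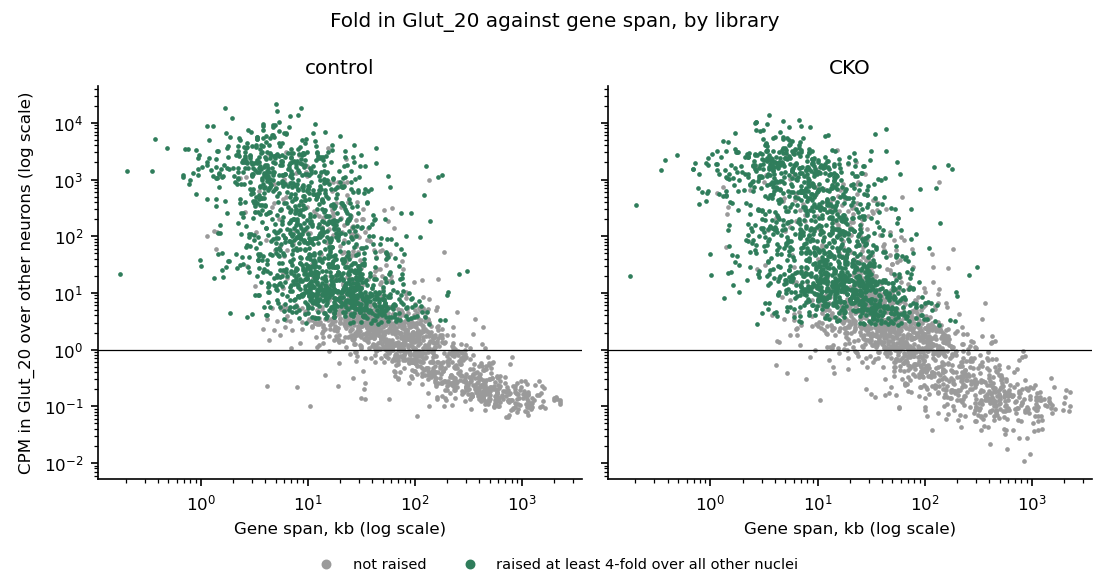
Fold of CPM in Glut_20 over the other nuclei labelled Glut or GABA (log scale) against gene span in kb (log scale), a point per gene with at least 50 UMIs, control on the left and CKO on the right. Genes at least 4-fold above all other nuclei (green) have a median span of 11.7 kb and the others (grey) of 65.5 kb.

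The make-up of the UMIs set Glut_20 apart from every other neuron label. Messages for ribosomal proteins, such as *Rpl19* and *Rpl13*, took 4.33% of control and 4.39% of CKO UMIs. The highest share in another neuron label was 0.0303% in control and 0.0343% in CKO, in Glut_21 both times. Transcripts of the mitochondrial genome took 1.46% and 1.74%, led by *mt-Co3*, a cytochrome oxidase subunit, at 3110.4 CPM in control and 3719.9 CPM in CKO. No other neuron label was above 0.0147%. Nuclear noncoding RNAs took 1.19% and 1.43%, below the lowest other neuron label at 4.69% in control and 4.48% in CKO. *Malat1*, the most abundant of them, was found in 69.7% of Glut_20 nuclei and stood at 0.215 and 0.305 of other neurons, in which 99.8% of control nuclei had it. Genes of at least 100 kb took 20.6% and 18.6% of UMIs, and between 60.9% and 78.0% in the other neuron labels of control. Smooth muscle nuclei came nearest in ribosomal messages, at 2.88% in control and 2.42% in CKO.

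**Figure D3:**
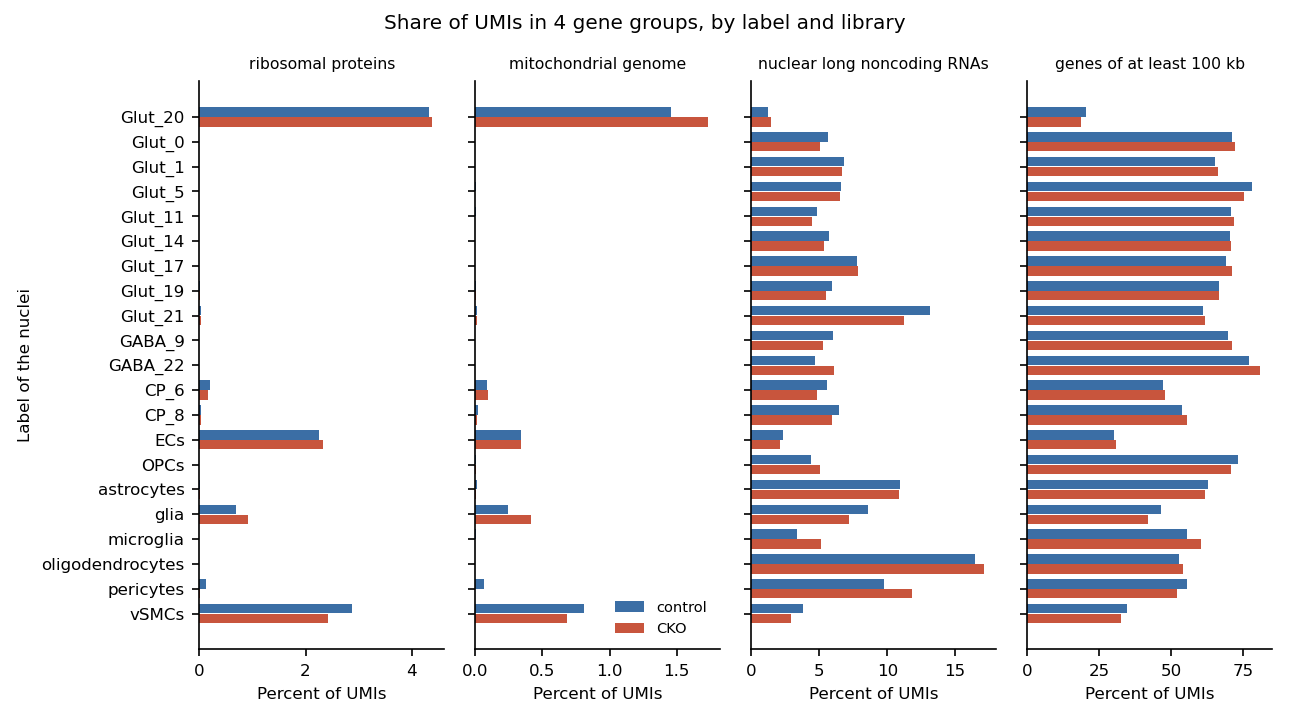
Share of UMIs, in percent, from genes of ribosomal proteins, the mitochondrial genome, 8 nuclear long noncoding RNAs and genes of at least 100 kb, for each label in control (blue) and CKO (red). Glut_20, at the top, has the highest ribosomal share among the neuron labels, at 4.33% and 4.39%.

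Whether markers of other cell types were present was asked because free RNA and mixed droplets can carry them into any nucleus. Of 82 markers of other types, 21 were found in at least 10% of Glut_20 nuclei. Of those with at least 50 UMIs, 26 of 28 (92.9%) were at least 2-fold above other neurons, against 70.2% of all genes. These 28 have a median span of 18.8 kb, against 26.3 kb for all genes with at least 50 UMIs, so the higher level of short genes bears on that share. *Mbp*, a myelin protein of oligodendrocytes, was found in 70.5% of nuclei and had 1522 CPM (95% interval 1418 to 1631) in control and 1461 CPM (1289 to 1649.8) in CKO, 97.0-fold and 62.7-fold the level in other neurons. At 1000 UMIs *Mbp* was found in 64.8% of Glut_20 nuclei, 1.06% of other neurons and 99.1% of oligodendrocytes. Members of the same lists differed: *St18*, a transcription factor found in 96.7% of oligodendrocytes, was in 3.81% of Glut_20 nuclei and 3.69% of other neurons, and the astrocyte gene *Slc39a12*, found in 45.5% of astrocytes, in 0.952% and 0.220%. *Slc1a2*, the glutamate uptake transporter of astrocytes, was found in 72.9% and had 1357 CPM in control and 1607 CPM in CKO, 5.23-fold and 6.68-fold the level in other neurons. *Ttr*, the thyroxine carrier of the choroid plexus, was found in 84.6% and had 2835 CPM in control and 2354 CPM in CKO. At 1000 UMIs *Ttr* was found in 82.4% of Glut_20 nuclei, 1.53% of other neurons and 99.1% of the choroid plexus label CP_8. Other members of its list did not go with it: at that depth *Kl*, *Folr1* and *Otx2* were found in 0% of Glut_20 nuclei, against 43.3%, 27.2% and 33.1% of CP_8. Vascular genes were rare by comparison: *Cldn5*, a tight junction protein of endothelial cells, was found in 4.01%, against 0.0932% of other neurons, and had 60.7 CPM in control and 101 CPM in CKO.

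Set beside the cell types they mark, the lists other than those of oligodendrocytes and microglia, whose sums are left out here, had these levels. The astrocyte list, with *Slc1a2* and *Aqp4*, reached 12.9% of its level in astrocytes in control and 15.4% in CKO. *Mbp*, at the CPM given above, compares with 10961 CPM in control and 11854 CPM in CKO in oligodendrocytes. The precursor list, with *Pdgfra*, reached 3.78% and 4.29% of oligodendrocyte precursors, and the ependymal and choroid plexus list, nearly all of it *Ttr*, 4.68% and 3.75% of CP_8. The endothelial list, with *Cldn5* and *Flt1*, reached 2.62% and 4.06% of endothelial nuclei, and the pericyte list, with *Rgs5*, 0.520% and 1.75% of pericytes. The smooth muscle list, with *Tagln*, reached 0.625% and 2.52% of smooth muscle nuclei, and the fibroblast list, with *Col1a1*, 5.84% and 8.09% of the nuclei labelled glia. Summed, the precursor list was no higher than in other neurons in CKO and hardly so in control. The sums were 624 against 619 CPM in control and 590.0 against 646 CPM in CKO. Its members differed, so the sum does not stand for them. At least 2-fold above other neurons in both libraries were 6 of the 9, and 1 was at most 0.5 of their level. In thinned nuclei *Lhfpl3* was found in 10.5% of Glut_20 nuclei and 31.5% of other neurons. *Olig1* was found in 16.7% and 0.0351%. Members of at least 2 of the astrocyte, oligodendrocyte, precursor and microglial lists met in 88.5% of control and 88.2% of CKO nuclei of Glut_20. In other neurons they met in 22.8% and 12.5%. A member of the astrocyte list alone was found in 83.0% of control and 86.5% of CKO nuclei of Glut_20, and in 29.1% and 26.6% of other neurons. Whether these lists met more often than separate draws would give was not tested. A member of the endothelial list was found in 5.78% of control and 8.24% of CKO nuclei. Glial genes such as *Mbp* were thus in most nuclei under the label and vascular genes such as *Cldn5* in few.

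How alike the summed profile was to other labels was measured by Pearson's r over 14448 genes, which are not independent replicates. The highest r was with smooth muscle nuclei, 0.550 in control and 0.551 in CKO. Among neuron labels it was with Glut_21, 0.392 and 0.370. The correlation of Glut_20 in control with Glut_20 in CKO was 0.808, and that of other neurons between libraries 0.987. Endothelial nuclei were at 0.413 and 0.451, but in control they fell below Glut_21 without ribosomal, mitochondrial and respiratory genes, at 0.395 against 0.413. By its whole profile Glut_20 was nearer to smooth muscle nuclei than to any neuron label. That r was 0.317 and 0.346 without sub-cluster 2, described below, which holds most *Cldn5* UMIs. Smooth muscle stayed highest, although *Acta2*, the smooth muscle actin, had only 4 and 7 UMIs in it.

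Whether the label holds 1 kind of nucleus was asked by clustering its nuclei, which gave 4 sub-clusters. Sub-clusters 1 and 3 were made up almost wholly of control nuclei, with 151 control and 8 CKO nuclei in the first and 107 and 4 in the third. Sub-cluster 4 had 1 control and 108 CKO nuclei. Sub-cluster 2, with 70 control and 50 CKO nuclei, was the only one with more than 8 from each library. No batch correction was applied, so the split between libraries and any split between genotypes cannot be told apart. Leading genes of sub-cluster 1 were *Fbxo45*, a ubiquitin ligase subunit, and *Npy*, at 3.23-fold the other sub-clusters. Sub-cluster 3 was led by the glycine receptor gene *Glra1*, at 8.15-fold, with *Nefh* at 3.77-fold. *Glra1* had 36 UMIs there, in 8.11% of its nuclei against 2.58% of the rest, so few nuclei carry it. Sub-cluster 4 was led by *Spp1*, a secreted phosphoprotein found in 3.67% of its nuclei and 6.15% of the rest, so that its 9.25-fold rests on few nuclei. The synuclein gene *Sncg* came next at 5.52-fold, with 28 UMIs in 9.17% of its nuclei against 6.92% of the rest, also few.

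Sub-cluster 2 differed from the others in depth and in the kind of RNA. Its median depth was 1730 UMIs, against 694 in the rest of Glut_20. It was led by *Xkr4*, a scramblase family gene with a long span, at 113 UMIs against 1 in the rest, a 161-fold difference with a counting interval of 28.4 to 6425. *Malat1* stood at 16998 CPM in it and 4497 CPM in the rest, below the 40148 CPM of other neurons. Genes of at least 100 kb took 30.1% of its UMIs, 13.0% in the rest and 69.6% in other neurons. Of the 50 *Cldn5* UMIs under the label, 47 were in sub-cluster 2. Glutamate and GABA genes met in 35% of its nuclei and 27.2% of the rest, so the meeting of both kinds was not limited to it.

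How Glut_20 differed between CKO and control was asked of the same 2836 genes. At least 2-fold higher in CKO were 89 (3.14%), and at least 2-fold lower 207 (7.3%). These counts depend on scaling and on the count minimum: TMM factors gave 43 and 303, and no minimum gave 2752 and 1421, so the direction with more genes is not fixed. The median log2 ratio was -0.04. The 95% counting interval lay wholly past 2-fold for 10 of the higher and 34 of the lower genes. Of the genes past 2-fold, 15 were also past 2-fold on the same side in other neurons. The mixture of labels among other neurons differed between libraries as well: Glut_5 made up 11.2% of control and 1.71% of CKO nuclei. Ratios in other neurons, here and below, hold that difference too. Sub-clusters 1, 3 and 4 each come nearly from 1 library, so these ratios compare nuclei of different sub-clusters. Over the whole label a change within nuclei thus cannot be told apart from a change in their mixture. In sub-cluster 2 alone 13 genes were higher and 70 lower, 5 and 44 of them among the genes counted above. Of genes named below, *Npas3* had a log2 ratio of 3.03 there (3.59 over the label) and *Trpm3* 1.35 (1.55). *Etv1* had -2.62 (-2.99) and *Xist* -4.90 (-4.24). The hemoglobin genes, also given below, had smaller ratios there.

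Among the higher genes, *Npas3*, a transcription factor of neurons and astrocytes (GRCm39 chromosome 12, 53294940 to 54118958), went from 34.2 CPM in control to 410.2 in CKO, a log2 ratio of 3.59 (counting interval of the ratio 7.09 to 21.4). In other neurons its ratio was 1.10. *Spp1* stood at 74.0 CPM in control and 359.6 CPM in CKO, a ratio of 4.86 (3.21 to 7.43), against 0.752 in other neurons. It was found in 4.71% of CKO nuclei, so few nuclei carry its counts. *Igfbp2*, a binding protein of insulin-like growth factors, stood at 41.8 CPM in control and 191 CPM in CKO, a ratio of 4.58 (2.60 to 8.21) against 0.248 in other neurons. Hemoglobin genes, made by red blood cells, were higher: of the erythroid list, 4 of the 4 genes with at least 50 UMIs passed 2-fold. *Hbb-bs* stood at 1110.2 CPM in control and 2539.9 CPM in CKO, a ratio of 2.29 (2.02 to 2.59) against 0.456 in other neurons; under TMM and median-of-ratios scaling its log2 ratio was 0.993 and 0.982, below 2-fold. *Hba-a1* stood at 344 CPM in control and 1039.5 CPM in CKO, a ratio of 3.03 (2.45 to 3.74) against 0.512 in other neurons. *Hba-a2* and *Hbb-bt* had ratios of 2.54 and 2.66. In sub-cluster 2, the only part with many nuclei of both libraries, *Hbb-bs* and *Hba-a2* were less than 2-fold apart, with log2 ratios of 0.582 and 0.863, whereas *Hba-a1* and *Hbb-bt* had 1.19 and 1.14. The remaining genes at the top were the ion channel *Trpm3*, at 2.93, the dystroglycan gene *Dag1*, at 3.08, and the respiratory subunit *Ndufs1*, at 3.57.

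Among the lower genes, 5 had no UMI in CKO, and for these the difference is a lower bound set against 3 counts. *Mog*, a myelin surface protein (chromosome 17, 37321521 to 37334350), had 115 UMIs in control and 0 in CKO, at least 12.9-fold lower. *Mbp* and *Mag* did not share this: *Mbp* had a ratio of 0.960 (0.831 to 1.11) and *Mag*, which encodes a myelin-associated glycoprotein, had 1.33 (0.910 to 1.92). *Slit3*, an axon guidance cue, was at least 6.98-fold lower, *Efnb3*, an ephrin, at least 6.53-fold, *Reln*, the secreted layering signal, at least 5.85-fold, and *Wipf3*, an actin regulator, at least 5.63-fold. *Lmo3*, a transcription cofactor of amygdala and cortex, had 60 UMIs in control and 1 in CKO, a ratio of 0.0493 (0.00123 to 0.286). *Glp2r*, a peptide receptor, and *Slc25a46*, a mitochondrial carrier, each had 50 and 1 UMIs, a ratio of 0.0592 (0.00147 to 0.345). With 1 UMI in CKO the intervals of *Lmo3*, *Glp2r* and *Slc25a46* are wide, but they lie below 0.5. *Etv1*, a transcription factor of layer 5 and granule neurons, stood at 268 CPM in control and 33.7 CPM in CKO, a ratio of 0.126 (0.0455 to 0.281) against 0.377 in other neurons. *Xist*, the noncoding RNA of the inactive X chromosome, had 168 and 3 UMIs, a ratio of 0.0529 (0.0108 to 0.157) against 0.000550 in other neurons. *Ddx3y*, a Y-linked helicase gene, had 36 and 10 UMIs, and its ratio in other neurons was 3.99. Sex and genotype cannot be told apart in these libraries.

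**Figure D4:**
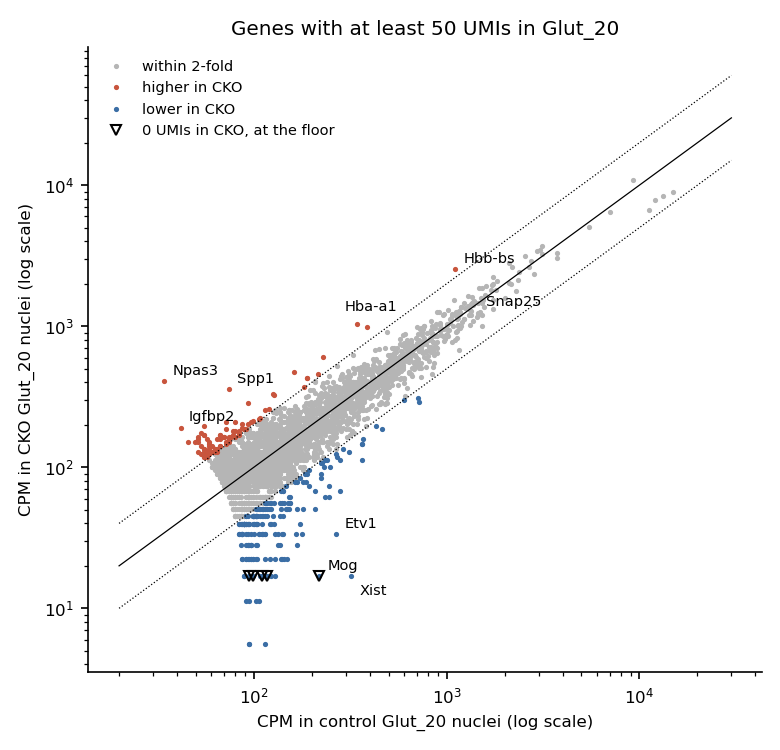
CPM in CKO against CPM in control for each gene with at least 50 UMIs in Glut_20, both on log scales; the solid line marks equal levels and dotted lines 2-fold differences. Of the genes plotted, 89 are higher in CKO (red), 207 are lower (blue), and triangles mark the 5 genes with 0 UMIs in CKO, drawn at the level of 3 counts.

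What genes of neuronal function and of signaling and stress pathways did was asked with 17 lists, 1 of them of sex-linked genes, in which 113 of 288 genes had at least 50 UMIs. Against other neurons, 34 of them (30.1%) were at least 2-fold above in both libraries, fewer than the 70.2% of all genes. *Nrgn*, a calmodulin-binding protein of dendritic spines, was found in 81.8% of nuclei at 1801 CPM in control and 1804 CPM in CKO, 22.5-fold and 21.4-fold the level in other neurons. *Gria2*, a subunit of AMPA receptors with a long gene, stood at 681 CPM in control and 562 CPM in CKO, or 0.440 and 0.383 of other neurons. *Grin2b*, a subunit of NMDA receptors, stood at 896 CPM in control and 769.8 CPM in CKO, or 0.516 and 0.413 of that level. At most 0.5 of the level in other neurons, in both libraries, were 6 of 7 AMPA and kainate receptor genes, 10 of 15 potassium channel genes and 17 of 20 guidance and adhesion genes. Of the NMDA receptor genes 1 of 3 were that low, and of the GABA-A and glycine receptor genes 3 of 9. Over all genes with at least 50 UMIs the count was 328 of 2836. The function genes have a median span of 278 kb, so the lower level of long genes bears on them. Genes of neuronal signaling were thus detected, with *Nrgn* above and most AMPA and kainate receptor, potassium channel and adhesion genes below the level in other neurons.

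Between CKO and control, 1 function gene was at least 2-fold higher and 19 were at least 2-fold lower (18 without the sex-linked *Xist*), beside 3.14% and 7.3% of all genes. Under TMM factors the counts were 0 and 30, and without sub-cluster 2 they were 0 and 11, so the single higher call is lost. Their median log2 ratio was -0.27. The higher gene was *Cdh18*, a cadherin, at 119.6 CPM in control and 258 CPM in CKO, a ratio of 2.16 (1.45 to 3.21). *Gria1*, an AMPA receptor subunit, stood at 364 CPM in control and 112 CPM in CKO, a ratio of 0.308 (0.184 to 0.490) against 1.14 in other neurons. *Epha6*, an ephrin receptor, had a ratio of 0.156 (0.0414 to 0.416). The intervals of *Gria1* and *Epha6* lie below 1. *Npy* stood at 313 CPM in control and 129 CPM in CKO, a ratio of 0.413 (0.255 to 0.641), against 0.487 in other neurons. Of the guidance and adhesion genes, 6 of 20 were lower. In the TGF-beta and BMP list, 4 genes had at least 50 UMIs and 0 were past 2-fold; the list summed to a ratio of 1.24 (1.07 to 1.43) against 0.964 in other neurons. *Id2*, a target of BMP signals, stood at 541 CPM in control and 466 CPM in CKO, a ratio of 0.862 (0.667 to 1.10), and *Id4*, its relative, had 1.74 (1.10 to 2.70). No interferon or cell cycle gene reached 50 UMIs. Summed, the interferon list, led by *B2m*, had 59 UMIs in control and 41 in CKO, a ratio of 2.06 (1.35 to 3.12) against 0.664 in other neurons. Lists of vessel cells summed to 1.81 (1.24 to 2.62) for pericytes, 3.66 (1.84 to 7.38) for smooth muscle and 1.18 (0.888 to 1.56) for endothelial cells. They rest on 80 UMIs in control and 49 in CKO, 17 and 21, and 180 and 72, in that order. In other neurons the ratios were 0.504, 0.422 and 0.407. The sum of the microglial list is left out here. Whether neurons or other sources gave the interferon UMIs was not tested. The cell cycle list had 48 and 18 UMIs, a ratio of 1.11 (0.608 to 1.94). Of the immediate early genes, which neuronal activity induces, 1 of 4 with at least 50 UMIs was lower: *Homer1*, a scaffold of glutamate receptors, with a ratio of 0.459 (0.2001 to 0.934). *Egr1* of the same list had 1.07, and the list summed to 1.19 (1.01 to 1.40), so *Homer1* does not stand for it. In the hypoxia list, *Aldoa*, a glycolytic enzyme raised by hypoxia, had 0.760 (0.608 to 0.943). All 6 genes of that list with at least 50 UMIs were within 2-fold. The list summed to 0.984 (0.868 to 1.113), so *Aldoa* does not stand for it.

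Glut_20 is thus a set of nuclei rich in messages of short genes, those of ribosomal proteins and neuronal ones such as *Tubb3*, *Nefl* and *Rab3a* among them, and in mitochondrial transcripts, with genes of both transmitter classes, markers of several regions and glial genes such as *Mbp* under the same label. Its genes set the label apart neither as glutamatergic nor as GABAergic and point to no single region.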

How the data were processed

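Single-nucleus RNA counts of 2 brain libraries (1 control, 1 CKO, 2 brains pooled in each) were used; the retina libraries were left out. The values are UMI counts (count) per gene and nucleus, deposited by the authors after alignment with PIPseeker, removal of background with CellBender and of doublets with SOLO, and manual curation. Labels are the authors' Seurat clusters, and the library was read from the barcode suffix. UMIs of Glut_20 nuclei were summed per library and divided by their total (CPM, 526935 UMIs in control, 177963 in CKO). Comparators were all other nuclei and the other nuclei labelled Glut or GABA. Intervals are 95%: Clopper-Pearson for shares, exact Poisson for CPM and exact conditional binomial for ratios. They and the floor of 3 counts cover counting error only. The floor is 5.69 CPM in control and 16.9 CPM in CKO. No test was run, as each genotype has 1 library and the clusters were drawn from the same nuclei.

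Genes needed 50 UMIs over both libraries. Raised means at least 4-fold over all other nuclei in both libraries, or 2-fold over other neurons for lists; a ratio of at least 2 or at most 0.5 was called. Likeness used log2(CPM + 1) of genes with at least 200 UMIs. Sub-clusters are Leiden, resolution 0.5, on 2000 variable genes, 20 components and 15 neighbours. Thinning drew 1000 UMIs per nucleus (seed 1). Named genes are the neuron and transmitter markers, regional lists with at least 3 raised members, the 20 largest folds, the 10 ratios furthest from 1 each way by interval bound, the most abundant and past 2-fold function genes, *Tgfbr1*, *Tgfbr2* and sex-linked genes; abundant, other-type, ribosomal and long-gene examples and the 4 regional groups were chosen after their values were seen. Lists and members were chosen with earlier results of these data known. Spans came from GENCODE vM39, matched by symbol for 97.8% of genes with at least 50 UMIs. Alternatives covered scaling, count minimum, depth, denominators, backgrounds, correlation, resolution and nuclei left out. Sums and intervals were computed with scipy 1.17.1 and numpy 2.4.6 under Python 3.11.15, tables were handled in pandas 2.3.3, clusters came from leidenalg 0.10.2 through scanpy 1.11.5, figures from matplotlib 3.10.9, and TMM factors from edgeR 4.0.16 running in R 4.3.3; the ratio code was tested on simulated data.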

Additional observations from a re-analysis of the deposited data

How the results depend on the processing

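No paired analysis was possible because each genotype has 1 library of pooled brains. The alternatives on sub-cluster 2, on nuclei from 500 to below 2000 UMIs, on the 10% detection rule, on list members with 50 UMIs, on the sex-linked list and on ribosomal, mitochondrial and respiratory genes were chosen after seeing the data.

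The share of Glut_20 was 1.98% in control and 1.16% in CKO. It was 1.51% and 0.560% of nuclei with at least 1000 UMIs, 4.00% and 2.03% of nuclei labelled Glut or GABA, and 2.32% and 1.45% of nuclei not labelled endothelial, lower in CKO each time.

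Genes raised over other nuclei numbered 1425. There were 492 with at least 200 UMIs, 2490 with no count filter, 759 at 8-fold and 478 in sub-cluster 2 alone. Without sub-cluster 2 there were 1230, of which 1155 were among the 1425. The region lists with at least 3 raised members were 17, between 14 and 21 at 4-fold, against the median neuron label, in nuclei with at least 1000 UMIs or without sub-cluster 2, and 7 when members also had to be in 10% of nuclei, and 7 when they needed 50 UMIs.

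The highest r was with smooth muscle nuclei under every alternative run. In control and CKO it was 0.525 and 0.543 with Spearman's rho, 0.430 and 0.451 on 2000 variable genes, 0.533 and 0.538 without ribosomal, mitochondrial and respiratory genes, 0.317 and 0.346 without sub-cluster 2, and 0.641 and 0.588 in sub-cluster 2 alone. Endothelial nuclei were above Glut_21 each time in CKO, but in control below it on 2000 variable genes, without ribosomal, mitochondrial and respiratory genes, and in sub-cluster 2 alone. There were 6 sub-clusters at resolution 1 and 3 at 0.2. A cluster of 120 and 113 nuclei there shared 120 and 113 with sub-cluster 2. Other-type markers in 10% of nuclei were 20 or 21.

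Between CKO and control, 89 genes were higher and 207 lower, so 30.1% of those past 2-fold were higher. TMM moved log2 ratios by -0.20 and median-of-ratios by -0.21. TMM gave 43 higher and 303 lower (12.4% higher), and median-of-ratios 40 and 310 (11.4%). A minimum of 20 UMIs gave 475 and 740 (39.1%), 200 UMIs gave 4 and 9, and no filter gave 2752 and 1421 (65.9%). The mean over nuclei gave 236 and 319 (42.5%), and dividing by the ratio in other neurons 318 and 385 (45.2%). Nuclei from 500 to below 2000 UMIs gave 34 and 42 (44.7%), with 8 and 12 of the genes reported. Sub-cluster 2 alone gave 13 and 70 (15.7%), with 5 and 44 shared, and the rest without it 41 and 115. The deeper nuclei, of 1000 UMIs and up, had 74 and 144, while setting genes of chromosomes X and Y aside gave 89 and 196. The count filters change how many genes are tested; why the counts move under the other alternatives was not tested. Leaving out nuclei with UMIs of the 5 marker lists left 2 nuclei in each library and gave no value.

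Function genes higher and lower were 1 and 19, with 6 and 31 at 20 UMIs, 0 and 30 under TMM, 1 and 18 without the sex-linked list, and 0 and 11 without sub-cluster 2. Of 284 values for single genes, 281 kept their sign. *Celf4* over other neurons in control went from a log2 fold of -0.176 to 0.00972 in nuclei with at least 1000 UMIs and 0.0509 against the median neuron label. The other was *Xist*, whose log2 ratio of -4.24 became 6.59 when divided by that in other neurons. *Hbb-bs* fell below 2-fold under TMM and median-of-ratios, at log2 ratios of 0.993 and 0.982.

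Depth and design limit these results. In CKO the cluster holds 177963 UMIs, so a gene at 0 there is bounded only by 16.9 CPM. With 1 library per genotype, genotype, sex, sequencing depth and preparation cannot be told apart. Beyond the authors' own background removal, free RNA, mixed droplets and RNA from outside the nucleus were not separated from RNA of the nuclei, and the deposited brain matrix holds no barcodes outside the labelled nuclei.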
